A study of Mus musculus with 16 samples.

Results

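The comparison set 4 macrophage arrays numbered 2.1 against 4 arrays numbered 1.1, 8 of the 16 single-colour Illumina mouse expression arrays of the study. The arrays were chosen by the number that ends each title. Per the labels, its first figure is the mouse and its second the duplicate measurement of that mouse, so 1.1 and 2.1 are the first measurements of mouse 1 and of mouse 2. Each number occurs once under each of 4 label combinations. The macrophages were grown from bone marrow of 12 week old C57BL6 mice with macrophage colony stimulating factor. They carried floxed Ndst1 alleles and either lacked Cre (Ndst1f/fLysMCre-, titled WT and called wild-type here) or carried it (Ndst1f/fLysMCre+, called Ndst1-deficient here). LysMCre is Cre inserted into the Lyz2 locus, which is active in myeloid cells, and Ndst1 encodes an enzyme that sulfates heparan sulfate chains. Each macrophage preparation was kept for 24 hours in lipoprotein-deficient serum, either untreated or with 50 µg/ml aggregated LDL (agLDL), which macrophages engulf to become lipid-laden foam cells.

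Mouse 1 and mouse 2 of one genotype label are different animals, and the same-numbered mice of the 2 labels are different animals too. The 8 arrays therefore came from 4 mice, 2 on each side, and each mouse gave 1 untreated and 1 agLDL array. Each 2.1 array was paired with the 1.1 array of the same genotype and agLDL label, which gave 4 pairs. All arrays of the wild-type label lay on slide 1 and those of the Ndst1-deficient label on slide 2, so the slides were balanced over the comparison. On both slides the 1.1 arrays took positions C (untreated) and G (agLDL), and the 2.1 arrays took positions A and E, so mouse number and array position cannot be told apart. Probes of Ndst1 were not analysed here.

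Macrophages both make and sense cytokines. Type I interferons bind a receptor that activates transcription factors, and these bind a DNA element, the interferon-stimulated response element, before antiviral genes. Macrophages also secrete chemokines that draw monocytes through the receptor CCR2, present peptides on MHC class II when the coactivator CIITA is made, and handle cholesterol through the nuclear receptor LXR.

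The arrays were of like brightness on both sides. The number of probes detected (detection p under 0.01) lay between 9500 and 9787 on the 1.1 arrays and between 9241 and 9951 on the 2.1 arrays, and the median raw intensity lay between 148 and 156 and between 149 and 161. Over 7647 genes, the root mean square log2 difference was 0.279 ± 0.019 between arrays of the same number (SD, 12 array pairs) and 0.416 ± 0.042 between arrays of the same labels but different number (SD, 4 array pairs). The 12 array pairs mix arrays of the same mouse with arrays of different mice, while the 4 compare different mice only. Arrays recur among the 12, so their SD is a description. The nearest array of each of the 8 had the same number, and for 6 of 8 it was the other array of the same mouse. The number took 50.3% of the variance among the 8 arrays, the genotype label with its slide 11.9% and the agLDL label 7.52%. All 14 macrophage markers on the array were tested, and Adgre1, Cd14, Mertk, Tyrobp, Itgam and Fcgr1 were detected on all 8 arrays. Of the 14, 2 were called higher and 3 lower on the 2.1 arrays (35.7% called, against 14% over all genes). The summed level of the list, in normalized linear signal, lay between 124020 and 134981 on the 1.1 arrays and between 129672 and 133592 on the 2.1 arrays. This sum includes Lyz2, read from a probe at the top of the array's range.

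Between the numbers, 1069 of 7647 genes (14%) differed at an adjusted p under 0.05 (limma on the 4 pairs, Benjamini-Hochberg over all genes). Of these, 510 (6.67%) were higher and 559 (7.31%) lower on the 2.1 arrays. Values are given below as log2 signals after background correction and quantile normalization, and differences as 2.1 minus 1.1 with the standard error of the fit over 4 pairs. The median difference of all genes was 0.00. A change of at least 1.5-fold was reached by 214 of the higher and 256 of the lower genes. In 23.7% of all genes the 4 values of one side did not overlap those of the other, and 39.6% had the same sign in all 4 pairs. Of the called genes, 1067 had the same sign in all 4 pairs and 118 overlapped between sides. Untreated and agLDL arrays of a mouse share an animal, so the 4 pairs stand for 2 mice a side. With the 2 arrays of each mouse averaged first, 1001 genes were called, 841 of them among the 1069. Of the genes named below as changed, Irgm2, Ext1, Nfkbia, Cd59a, Ms4a6d, Pparg, Psme2, Psmb3 and Adgre1 were then no longer called.

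**Figure D1:**
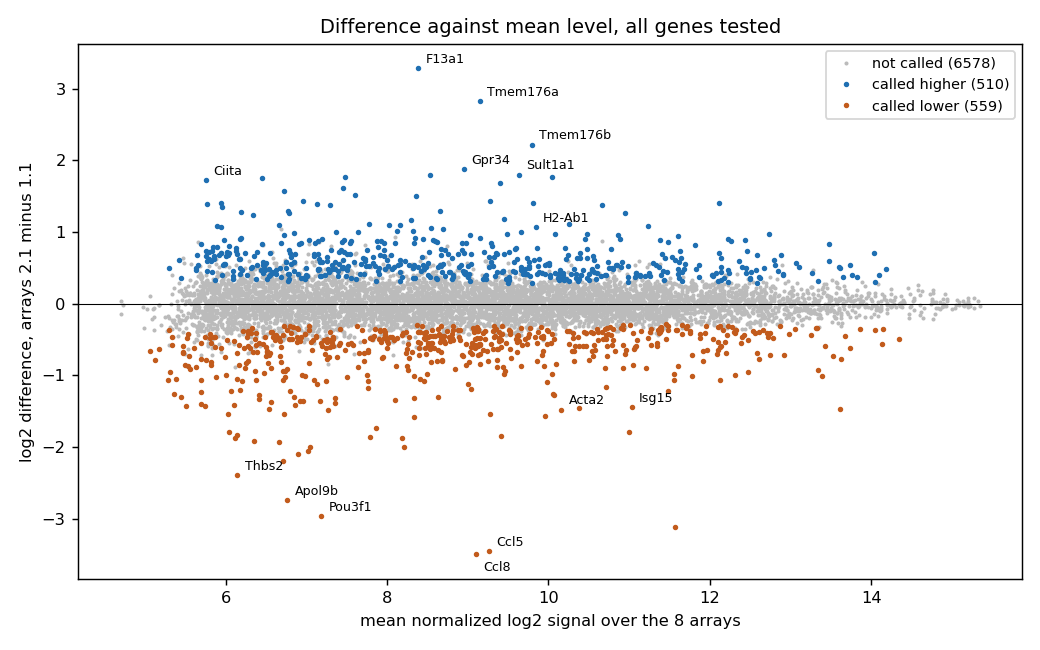
Log2 difference (arrays 2.1 minus 1.1) against the mean normalized log2 signal over the 8 arrays, 1 point per gene. Of the 7647 genes, 510 were called higher (blue) and 559 lower (orange), and the called genes spread over most levels of signal, with Ccl8 and Ccl5 lowest and F13a1 highest.

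Lyz2, which encodes lysozyme M and carries the Cre insertion, was the first gene read. Its probe ILMN_2939681 measured 11.97, 12.16, 11.93 and 12.14 on the 1.1 arrays, in the order wild-type untreated, wild-type agLDL, deficient untreated and deficient agLDL, which is kept throughout. On the 2.1 arrays the same probe measured 13.41, 13.32, 13.46 and 13.40. Every 2.1 array was above every 1.1 array, by 1.35 ± 0.10 or 2.55-fold (adjusted p = 0.00099). Between the genotype labels the probe differed by 0.01 (95% interval -0.17 to 0.19), deficient minus wild-type. A dimmer probe, ILMN_2766780, was higher by 1.88 ± 0.17 or 3.69-fold (adjusted p = 0.00242), with a difference of -0.10 (-0.55 to 0.34) between the genotype labels. The brightest Lyz2 probe, ILMN_1252076, had mean raw intensities of 40470 and 42709, the top of the array's range, and differed by 0.04 ± 0.08. Lyz1, a closely similar neighbouring gene, had 3 probes between -1.66 and 0.15, so signals of both lysozyme genes are uncertain and their probes disagree. On the 2 Lyz2 probes below saturation the numbers were apart, and the interval of the difference between genotype labels included 0. Numbers and genotype labels are used here as the submitters gave them, and Lyz2 did not serve as a check of the genotype labels.

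The gene with the largest increase was F13a1, the A subunit of coagulation factor XIII, a transglutaminase that macrophages make. It measured 6.41, 6.77, 6.68 and 7.13 on the 1.1 arrays and 10.42, 9.88, 9.70 and 10.11 on the 2.1 arrays. The lowest 2.1 array was far above the highest 1.1 array, and the difference was 3.28 ± 0.18, or 9.73-fold (adjusted p = 0.000598). Tmem176a and Tmem176b, adjacent genes on chromosome 6 for ion channel proteins of antigen-presenting cells, followed. Tmem176a measured 7.21, 8.25, 7.63 and 7.87 against 11.02, 10.19, 10.48 and 10.58, a difference of 2.83 ± 0.27 (adjusted p = 0.00252). Tmem176b measured 8.16, 9.22, 8.14 and 9.23 against 11.02, 10.74, 11.02 and 10.83, a difference of 2.22 ± 0.27 (adjusted p = 0.00524). On the 1.1 arrays both agLDL arrays were higher for Tmem176b than both untreated ones, and on the 2.1 arrays they were lower.

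Several cell surface receptors stood among the 14 largest increases. Gpr34, a lysophosphatidylserine receptor of resident macrophages, measured 7.39, 8.45, 8.20 and 8.04 on the 1.1 arrays and 10.12, 9.67, 9.78 and 10.00 on the 2.1 arrays, and its 2 probes rose by 1.73 and 1.87. Ednrb, the endothelin B receptor, measured 8.72, 9.34, 9.06 and 9.55 against 11.04, 10.72, 10.94 and 11.01, a rise of 1.76 ± 0.16. Ramp1, the coreceptor for calcitonin gene-related peptide, rose by 1.51 ± 0.26 from 5.98, 7.40, 7.10 and 6.92 to 8.43, 8.11, 8.40 and 8.51. In these 3 genes the untreated wild-type array of number 1.1 was the lowest of the 8, and no values overlapped between the sides. Without the deficient untreated pair, Ramp1 no longer passed the test (adjusted p = 0.0519).

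Enzymes, an adhesion protein and a kinase were among the other increases. Sult1a1, a phenol sulfotransferase, rose by 1.80 ± 0.14, from between 8.20 and 8.98 to between 10.45 and 10.70. Emb, the adhesion protein embigin, rose by 1.68 ± 0.24 (7.98 to 8.91 against 9.86 to 10.49). Dapk1, death-associated protein kinase, rose by 1.61 ± 0.13 (6.31 to 6.85 against 8.20 to 8.40), and Adam19, a membrane metalloprotease, by 1.58 ± 0.19 (5.48 to 6.33 against 7.30 to 7.67). Adam19 was detected on 2 of 4 of the 1.1 arrays and on all 2.1 arrays. The unnamed probe ILMN_2743932 rose by 1.76 ± 0.29, and without the deficient untreated pair it was no longer called (adjusted p = 0.0562). A second unnamed probe, ILMN_2764607, was not detected on any 1.1 array and was at least 2.73-fold higher (adjusted p = 0.00328).

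**Figure D2:**
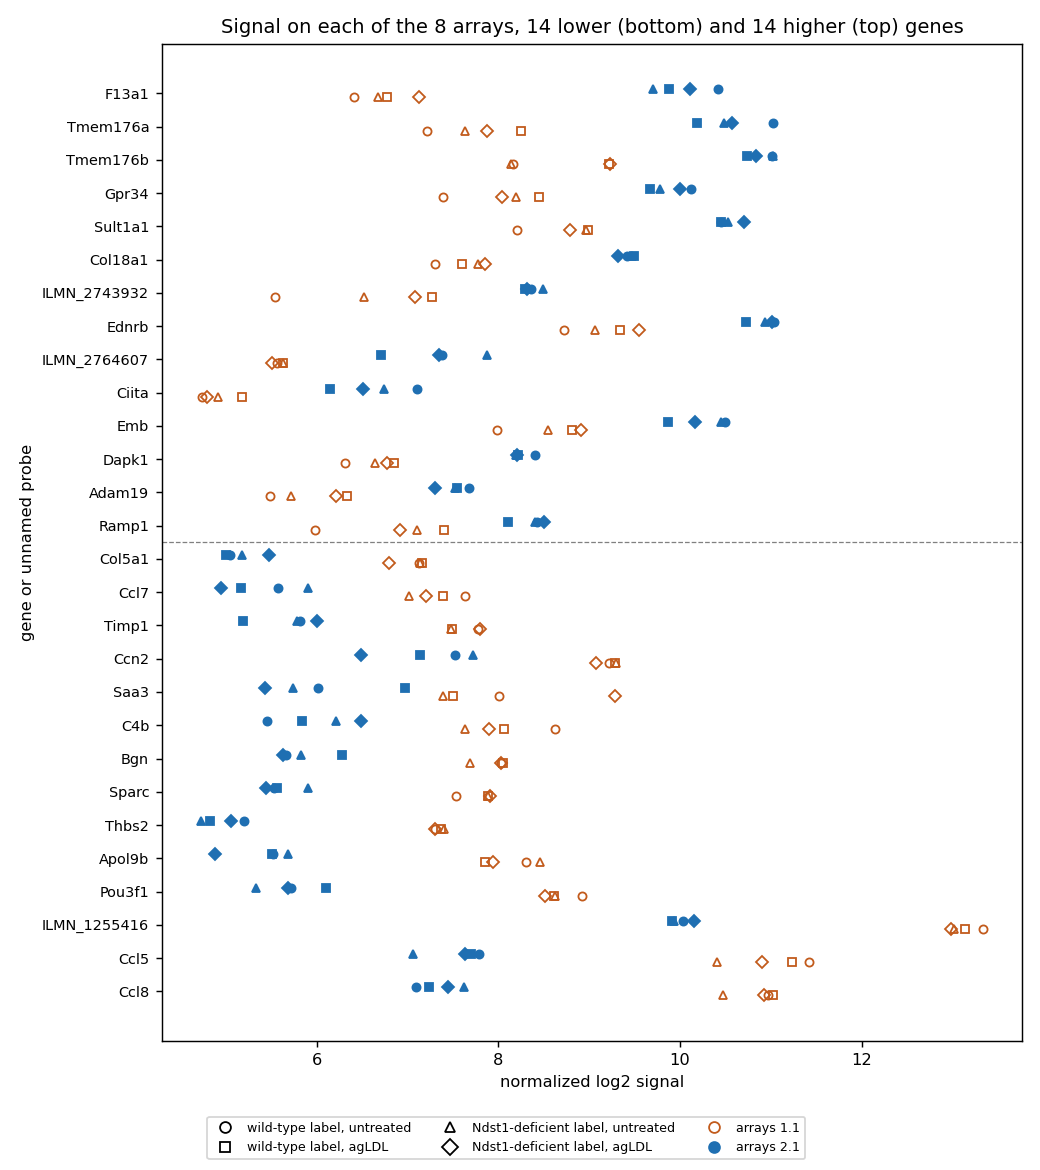
Normalized log2 signal (horizontal axis) of the 14 genes or probes with the largest increase (top) and the 14 with the largest decrease (bottom) on each of the 8 arrays. Open orange symbols are the 1.1 arrays, filled blue symbols the 2.1 arrays, and the shape gives the genotype and agLDL label. The sides do not overlap in any of the 28 rows, against 23.7% of all genes without overlap. The rows were chosen for large called differences of the same sign in all 4 pairs, which largely fixes this. F13a1 has 6.41 to 7.13 against 9.70 to 10.42, and Ccl8 has 10.48 to 11.02 against 7.09 to 7.62.

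Chemokines had the largest decreases. Ccl8, a monocyte chemoattractant, measured 10.97, 11.02, 10.48 and 10.92 on the 1.1 arrays and 7.09, 7.23, 7.62 and 7.45 on the 2.1 arrays. It fell by 3.50 ± 0.17 on the log2 scale, 11.3-fold (adjusted p = 0.000392), with all 1.1 arrays far above all 2.1 arrays. Ccl5, the T cell and monocyte attractant RANTES, measured 11.42, 11.23, 10.41 and 10.91 against 7.78, 7.69, 7.05 and 7.63. It fell by 3.45 ± 0.09, or 10.9-fold, and had the smallest adjusted p of all genes (4.88e-05). On both sides the wild-type untreated array was the highest for Ccl5 and the deficient untreated array the lowest, so the pairs moved in parallel.

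The other monocyte chemoattractant genes, ligands of CCR2, lie beside Ccl8 on chromosome 11, where Ccl2 adjoins Ccl7 and Ccl12 adjoins Ccl8, with 1 protein-coding gene between the pairs. Ccl12 measured 9.04, 8.60, 8.27 and 8.97 against 7.04, 6.72, 6.81 and 6.86 and fell by 1.86 ± 0.12 (adjusted p = 0.00072). Ccl7 measured 7.63, 7.39, 7.01 and 7.20 on the 1.1 arrays and was not detected on any 2.1 array, at least 2.68-fold lower (adjusted p = 0.0033). Ccl2, the best known CCR2 ligand, was not detected on any of the 8 arrays. Of these 4 genes 3 were therefore lower (75%, against 7.31% called lower over all genes), and 2 of the 3 were detected on all 8 arrays. Among the 8 arrays Ccl7 was detected on the 1.1 side only, so its direction is not independent of the detection filter.

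Of 11 other chemokine genes tested, 3 were lower and 2 higher (45.5% called, against 14% over all genes). Ccl4 and Ccl3, adjacent genes for macrophage inflammatory proteins, fell by 0.93 ± 0.10 and 0.65 ± 0.09. Ccl4 measured 13.97, 13.77, 13.75 and 13.74 against 12.79, 12.92, 12.99 and 12.81. The opposite direction was seen in Cxcl10, an interferon-inducible attractant of activated T cells, which measured 8.93, 9.48, 9.03 and 9.18 against 9.88, 9.67, 10.02 and 9.94 and rose by 0.72 ± 0.14 (adjusted p = 0.0239). Cxcl2, a neutrophil attractant, was not detected on any 1.1 array and was detected on 3 of the 2.1 arrays, at least 1.25-fold higher (adjusted p = 0.0158), and its values overlapped between sides. Cxcl16, the ligand of CXCR6 that also acts as a scavenger receptor, differed by 0.29 ± 0.08 and did not pass the test (adjusted p = 0.0608). Among 5 chemokine receptor genes, Cxcr4, which binds CXCL12, rose by 0.96 ± 0.16. Fpr2, a formyl peptide receptor kept in the same list, fell by 0.70 ± 0.14. The fractalkine receptor gene Cx3cr1 differed by 1.05 ± 0.30 without passing (adjusted p = 0.0627).

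Type I interferon stimulated genes were lower as a group. Of 52 genes on the list, 45 were on the array and 37 were detected often enough to be tested. In the 2.1 arrays 27 of the 37 were lower, 0 were higher and 10 were not called, a called share of 73.0% against 7.31% called lower over all genes, and 25 of the 27 were detected on all 8 arrays. The median difference was -0.57, against 0.00 for all genes, and the members ran from -2.74 to -0.02. Leaving out 1 pair of arrays left between 20 and 23 members called lower. The list was chosen with earlier results of these data known. Cxcl10, interferon-inducible as well, was counted with the other chemokines and rose. Isg15, a ubiquitin-like protein that is conjugated to other proteins during antiviral responses, measured 12.14, 11.94, 11.31 and 11.63 on the 1.1 arrays and 10.48, 10.44, 10.14 and 10.19 on the 2.1 arrays. It fell by 1.44 ± 0.10 (adjusted p = 0.000964). Oas3, a sensor of double-stranded RNA that makes 2'-5' oligoadenylates, measured 10.95, 10.65, 10.62 and 10.58 against 9.58, 9.39, 9.35 and 9.38 and fell by 1.27 ± 0.08.

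Oasl1, an oligoadenylate synthetase-like protein, measured 10.15, 9.92, 10.10 and 10.04 against 8.49, 8.47, 8.80 and 8.26, and its 3 probes fell by 1.55 to 1.67. Phf11d, a PHD finger protein, measured 12.25, 11.92, 12.17 and 12.00 against 10.92, 10.72, 10.98 and 10.86 and fell by 1.21 ± 0.08. These 4 genes were detected on all 8 arrays, and for each the lowest 1.1 array was above the highest 2.1 array. Apol9b, an apolipoprotein L family gene, measured 8.30, 7.85, 8.46 and 7.94 on the 1.1 arrays, was not detected on any 2.1 array and was at least 4.76-fold lower (adjusted p = 0.000392). Isg20, an exonuclease that degrades RNA, was likewise not detected on the 2.1 arrays and was at least 1.35-fold lower (adjusted p = 0.00072).

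**Figure D3:**
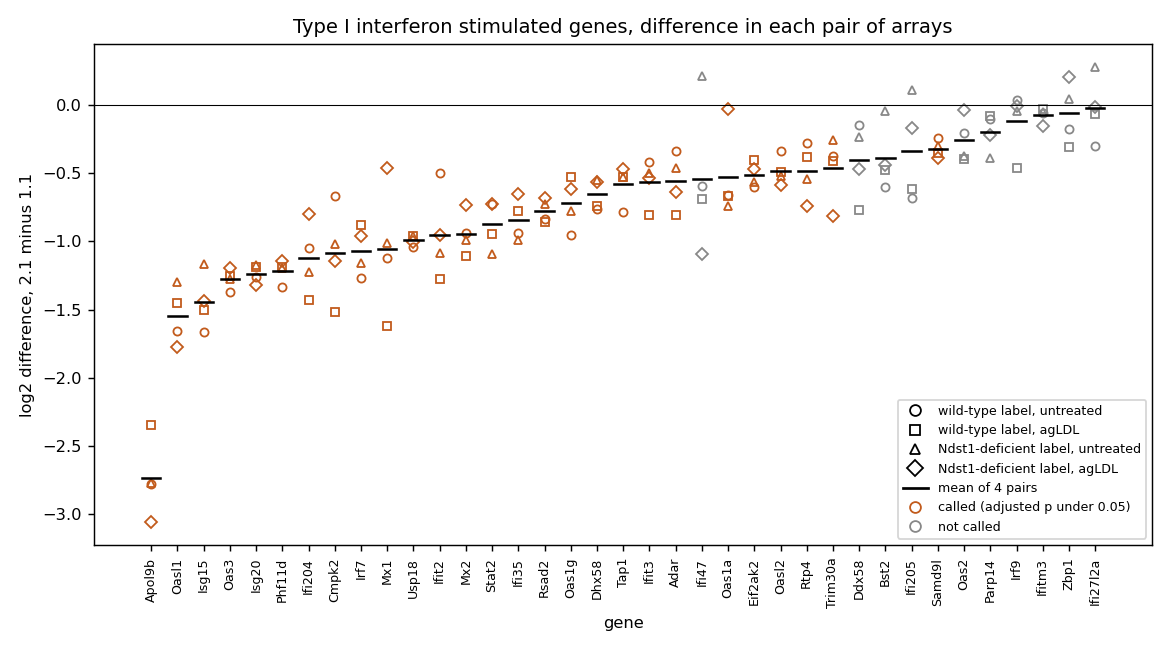
Log2 difference (2.1 minus 1.1, vertical axis) of the 37 tested type I interferon stimulated genes in each of the 4 pairs of arrays. Symbols give the pair, the black bar the mean of 4 pairs, orange the 27 genes called lower and grey the 10 not called. The means run from -2.74 in Apol9b to -0.02, and all lie at or below 0.

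The interferon-stimulated response element was looked for in promoter windows, since these genes moved together. A match was the letters GAAANNGAAA on either strand in the 300 bases around each start site, from RefSeq on GRCm38.p6, and overlapping matches counted once per gene. Of the tested genes with a window, 244 of 5872 (4.16%) held a match, against 1079 of all 27025 genes with a window (3.99%). Among the genes called lower 44 of 416 (10.6%) held one, or 34 of 395 (8.61%) outside the interferon list, and among those called higher 14 of 381 (3.67%). In the interferon list 10 of 21 called members with a window (47.6%) and 4 of 6 not called members held a match. Windows of 3 interferon genes that fell, Isg15, Oas3 and Apol9b, and of Cxcl10, which rose, are printed 5′ to 3′ on the strand of the gene with the matches in capitals. The Isg15 capitals span 3 overlapping matches and the Apol9b capitals an overlapping pair on the opposite strand.
Isg15, chr4:156200769-156201068, minus strand: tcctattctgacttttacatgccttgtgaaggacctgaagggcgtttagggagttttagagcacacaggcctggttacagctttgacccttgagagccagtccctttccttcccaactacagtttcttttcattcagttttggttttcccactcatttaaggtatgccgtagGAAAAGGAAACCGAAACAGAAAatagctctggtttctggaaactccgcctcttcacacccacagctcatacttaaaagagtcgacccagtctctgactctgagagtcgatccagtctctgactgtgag
Oas3, chr5:120777610-120777909, minus strand: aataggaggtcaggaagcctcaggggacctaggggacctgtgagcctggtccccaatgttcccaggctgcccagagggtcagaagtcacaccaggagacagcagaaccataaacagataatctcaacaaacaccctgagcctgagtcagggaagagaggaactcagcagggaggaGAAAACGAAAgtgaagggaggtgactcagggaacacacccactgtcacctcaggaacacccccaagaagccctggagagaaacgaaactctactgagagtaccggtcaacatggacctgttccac
Apol9b, chr15:77728822-77729121, plus strand: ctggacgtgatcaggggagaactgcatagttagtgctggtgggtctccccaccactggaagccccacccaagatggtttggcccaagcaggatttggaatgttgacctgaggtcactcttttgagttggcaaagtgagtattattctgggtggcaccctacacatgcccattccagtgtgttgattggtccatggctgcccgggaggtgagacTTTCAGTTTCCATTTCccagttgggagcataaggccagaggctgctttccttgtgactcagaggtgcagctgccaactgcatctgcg
Cxcl10, chr5:92348840-92349139, minus strand: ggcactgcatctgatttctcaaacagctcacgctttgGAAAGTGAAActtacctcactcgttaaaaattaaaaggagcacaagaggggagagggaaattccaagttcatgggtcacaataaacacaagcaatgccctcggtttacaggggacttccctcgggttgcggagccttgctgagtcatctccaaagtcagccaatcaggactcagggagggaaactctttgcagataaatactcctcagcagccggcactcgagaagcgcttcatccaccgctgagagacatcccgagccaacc
The Oas3 match begins at position -75 from the start site and the Cxcl10 match at position -213, so a match was present both before genes that fell and before one that rose. A match is a description of these letters and not of binding.

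Interferon gamma inducible GTPases were lower by smaller amounts. Igtp, Irgm1 and Irgm2, immunity-related GTPases, and Gbp2, a guanylate-binding protein, made up the 4 of 9 tested members that fell. With the 1 higher member, 55.6% of the list were called, against 14% over all genes. Igtp measured 12.44, 12.22, 12.34 and 12.25 against 11.46, 11.47, 11.54 and 11.55 and fell by 0.80 ± 0.08 (adjusted p = 0.00341). The other 3 fell by 0.40 to 0.44 and were not all called with 1 pair left out, which kept between 1 and 2 members lower, and Gbp3 differed by -0.33 ± 0.13 without passing (adjusted p = 0.138). The 1 member that was higher was Ciita, the master coactivator of MHC class II genes. It was not detected on any 1.1 array, measured 7.10, 6.14, 6.74 and 6.50 on the 2.1 arrays, and was at least 1.68-fold higher (adjusted p = 0.00539).

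Of 10 tested genes of class II presentation and costimulation, 4 were higher, Ciita counted among them, 0 were lower and 6 were not called. The called share was 40.0%, against 6.67% called higher over all genes. Of the 4 higher genes 3 were detected on all 8 arrays, and the direction of Ciita is not independent of the detection filter. H2-Ab1, the beta chain of the I-A molecule, measured 9.22, 9.46, 9.41 and 9.15 on the 1.1 arrays and 10.59, 9.91, 10.53 and 10.48 on the 2.1 arrays. It rose by 1.07 ± 0.16 (adjusted p = 0.00982), and its 4 probes ranged from 0.85 to 1.07. Cd74, the invariant chain, measured 11.20, 11.51, 11.15 and 11.17 against 12.19, 11.67, 12.06 and 12.07 and rose by 0.74 ± 0.15. H2-Eb1, the beta chain of I-E, rose by 0.87 ± 0.19. The number of called members was 1 without the wild-type untreated pair, 4 without the wild-type agLDL pair and 2 without either deficient pair. In H2-Ab1, Cd74 and H2-Eb1 the wild-type agLDL array was the highest 1.1 array and the lowest 2.1 array, so its pair differed least. Cd80, a costimulatory ligand of T cells, differed by 0.34 ± 0.09 (adjusted p = 0.0597), and Ctss, the protease that trims the invariant chain, by -0.29 ± 0.13 (adjusted p = 0.174).

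Proteasome subunits were lower in 8 of 26 tested genes and higher in 0 (30.8%, against 7.31% called lower over all genes), at a median of -0.16. Psmb9 and Psmb8 are catalytic subunits of the interferon-inducible immunoproteasome, which cuts peptides for MHC class I. Psmb9 measured 11.29, 11.46, 11.18 and 11.58 against 10.63, 10.74, 10.68 and 10.96 and fell by 0.63 ± 0.08 (adjusted p = 0.00617). Psmb8 fell by 0.57 ± 0.12, with values that overlapped between the sides, and Psme2, a subunit of the PA28 activator, by 0.37 ± 0.08. Constitutive subunits were among the called genes as well: Psmc5, an ATPase of the base, fell by 0.51 ± 0.09, Psmb3 by 0.41 ± 0.09 and Psmd11 by 0.47 ± 0.07. With 1 pair left out between 1 and 3 subunits were called, the fewest without the deficient agLDL pair.

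Most of the tested extracellular matrix genes were lower. Of 14 tested matrix and matricellular genes 9 were lower and 1 higher (71.4% called, against 14% over all genes), at a median of -0.97. Of the 14, 6 were not detected on any array of 1 side, so only 3 of the 10 calls rest on genes detected on all 8 arrays. Genes detected on 1 side only entered the test through the side where they were high, so their direction is not independent of the filter. With any 1 pair left out 8 were lower. Ccn2, connective tissue growth factor, was detected on all of them. It measured 9.21, 9.28, 9.29 and 9.08 on the 1.1 arrays and 7.52, 7.13, 7.72 and 6.49 on the 2.1 arrays and fell by 2.00 ± 0.17 (adjusted p = 0.00189). Timp1, the inhibitor of metalloproteinases, fell by 1.94 ± 0.12 from between 7.47 and 7.80 to between 5.19 and 6.003, with 2 of the 2.1 arrays above the detection limit. Bgn, the small proteoglycan biglycan, measured 8.03, 8.05, 7.69 and 8.03 against 5.66, 6.28, 5.83 and 5.62, was 4.29-fold lower (adjusted p = 0.00072) and was detected on 1 of the 2.1 arrays.

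A further 4 genes of matrix proteins or matrix assembly were detected on all 1.1 arrays and no 2.1 array. Sparc, a collagen-binding glycoprotein, measured 7.53, 7.88, 7.88 and 7.91 on the 1.1 arrays and was at least 3.77-fold lower. Thbs2, thrombospondin 2, measured 7.30, 7.37, 7.40 and 7.30 and was at least 2.75-fold lower. The bounds for Col5a1, a fibrillar collagen chain, and Lox, the enzyme that crosslinks collagen, were 2.24-fold and 1.90-fold. Each of these 4 had an adjusted p of 0.00175 or less. The matrix gene that rose was Col18a1, the collagen from which endostatin is cut. It measured 7.30, 7.60, 7.78 and 7.85 against 9.41, 9.50, 9.47 and 9.32, a rise of 1.79 ± 0.12 (adjusted p = 0.000734).

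The 4 tested markers of stromal cells, Col1a1, Col5a1, Sparc and Acta2, were lower on the 2.1 arrays, and the first 3 of them are matrix genes themselves. Among the 8 arrays those 3 were detected only on 1.1 arrays. They thus entered the test through the side where they were high, and their direction is no independent result. Of 18 stromal and endothelial markers on the array 12 were not detected on any of the 8 arrays, among them Col1a2, Col3a1, Pdgfra, Pdgfrb, Kdr and Cdh5. The summed level of the 18 lay between 2651 and 2885 on the 1.1 arrays and between 1142 and 1376 on the 2.1 arrays. Acta2, smooth muscle actin, carried most of it. It measured 10.84, 10.89, 10.89 and 10.97 against 9.28, 9.43, 9.73 and 9.25, and its 4 probes fell by 0.70 to 1.48. Col1a1, a chain of type I collagen, was detected on 2 of the 1.1 arrays and no 2.1 array. The part of such cells in the matrix result was not tested, and in bulk RNA fewer cells of a type and less RNA per cell cannot be told apart.

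Proteases of the matrix went both ways, with 5 lower and 3 higher among 14 tested (57.1% called, against 14% over all genes). Of the called genes 5 were detected on all 8 arrays, and 1 of the higher genes was detected on none of them. Mmp13, a collagenase, measured 11.54, 11.44, 11.54 and 11.37 against 10.64, 10.56, 10.64 and 10.62 and fell by 0.86 ± 0.08 (adjusted p = 0.00206). Mmp9, a gelatinase, measured 8.03, 7.83, 8.01 and 8.19 against 9.05, 9.15, 9.16 and 8.94 and rose by 1.06 ± 0.11 (adjusted p = 0.00328). In neither gene did the sides overlap. Mmp2 and Adam8, a gelatinase and a membrane metalloprotease, fell by 0.79 ± 0.13 and 0.72 ± 0.12. F13a1, counted in this list as well, was described above.

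In the list of Tmem176 and resident macrophage genes, 8 of 19 tested genes were higher and 1 lower (47.4% called, against 14% over all genes). The median was 0.30. The list was chosen with earlier results of these data known and holds several of the largest increases. Its share is therefore a description and no independent result. F13a1, the Tmem176 pair, Gpr34 and Ednrb, given above, led the list. Stab1, the scavenger receptor stabilin-1, measured 11.72, 11.68, 11.87 and 11.86 against 12.55, 12.68, 12.79 and 12.70 and rose by 0.90 ± 0.08 (adjusted p = 0.00189). The member that fell was Vsig4, a complement receptor of tissue macrophages, which measured 9.63, 9.70, 9.55 and 9.66 against 8.45, 8.03, 8.72 and 8.59, a fall of 1.19 ± 0.14. Mrc1, the mannose receptor, and C1qa, the first chain of complement C1q, differed by 0.30 ± 0.11 and -0.28 ± 0.11, and neither passed the test. In the list of alternative activation genes, Tgm2, tissue transglutaminase, fell by 0.89 ± 0.08 and the transcription factor Egr2 rose by 0.85 ± 0.20. Chil3 and Clec10a, commonly used markers of this state, differed by 0.43 ± 0.14 and 0.82 ± 0.27 with adjusted p-values of 0.0875 and 0.0912.

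**Figure D4:**
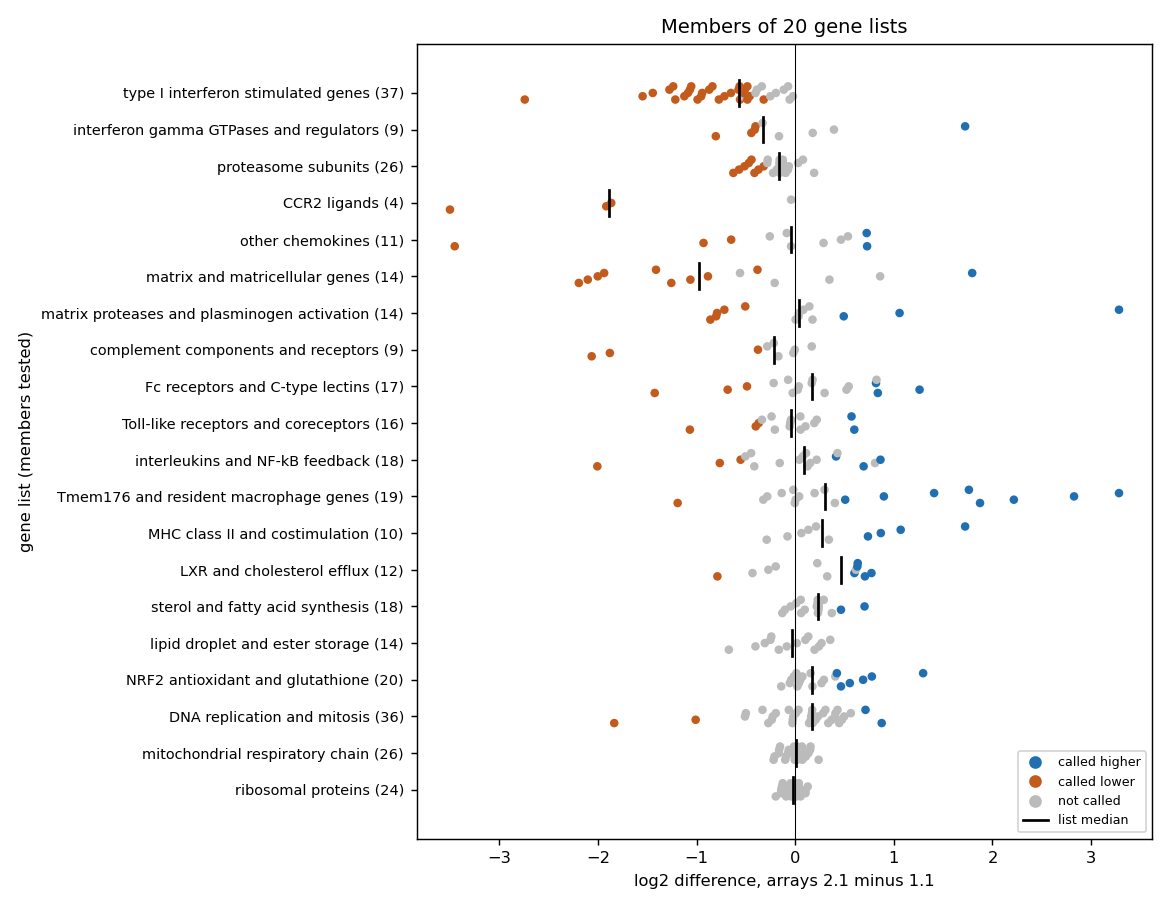
Log2 difference (2.1 minus 1.1, horizontal axis) of each tested member of 20 gene lists, with the number of members in brackets. Blue and orange points were called higher and lower, grey points were not called, and the bar is the list median. Type I interferon genes lie below 0 with 27 called lower and 0 higher, matrix genes have a median of -0.97, and respiratory chain and ribosomal protein genes cluster at 0 with 0 called.

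Of 9 tested complement genes 3 were lower and 0 higher (33.3% called, against 14% over all genes), and the acute phase gene Saa3 was lower too. C2, a serine protease of the classical pathway, measured 9.19, 9.24, 9.01 and 9.03 against 7.22, 7.15, 7.37 and 7.22 and fell by 1.88 ± 0.10 (adjusted p = 0.000486). C4b, the substrate of the same pathway, measured 8.62, 8.07, 7.64 and 7.90 against 5.45, 5.83, 6.21 and 6.48 and fell by 2.06 ± 0.29. The pairs of C4b were uneven: the wild-type untreated array was the highest 1.1 array and the lowest 2.1 array. Cd59a, an inhibitor of the membrane attack complex, fell by 0.38 ± 0.09. Saa3, a serum amyloid A made by macrophages, measured between 7.39 and 9.28 on the 1.1 arrays and between 5.43 and 6.97 on the 2.1 arrays and fell by 2.01 ± 0.47 (adjusted p = 0.0386), and the deficient agLDL array of number 1.1 stood above the others. Its difference was -1.39 without that pair (adjusted p = 0.0397), and it was no longer called without the wild-type untreated pair (-2.01, adjusted p = 0.132) or the deficient untreated pair (-2.12, adjusted p = 0.0961).

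Cytokine and NF-kB feedback genes moved in both directions, 3 of 18 each way (33.3% called, against 14% over all genes). Il10, the anti-inflammatory cytokine interleukin 10, measured 10.10, 10.00, 9.89 and 9.66 against 9.13, 9.04, 9.30 and 9.13 and fell by 0.76 ± 0.11 (adjusted p = 0.00824). Il1rn, the interleukin 1 receptor antagonist, fell by 0.55 ± 0.11. Tnfaip2, a TNF-induced protein, rose by 0.86 ± 0.12, and Tnfaip3 and Nfkbia, both feedback inhibitors of NF-kB, by 0.69 ± 0.15 and 0.41 ± 0.10. Toll-like receptor genes were split as well, with 2 higher and 3 lower of 16 (31.25% called, against 14% over all genes). Tlr2, which senses bacterial lipopeptides, rose by 0.60 ± 0.08 and Cd14, the coreceptor for lipopolysaccharide, by 0.57 ± 0.10. Cd180, a regulator of TLR4 signalling, measured 12.24, 11.96, 12.07 and 12.09 against 11.11, 11.14, 10.97 and 10.87 and fell by 1.07 ± 0.09 (adjusted p = 0.00189).

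Fc receptors and lectins differed by member. The activating receptors Fcgr1 and Fcgr4 fell by 0.68 ± 0.08 and 0.49 ± 0.08, whereas the inhibitory receptor Fcgr2b rose by 0.82 ± 0.17 and Fcgrt, the neonatal Fc receptor, by 0.84 ± 0.16. Fcgr1 measured 12.58, 12.57, 12.44 and 12.58 against 11.94, 11.77, 11.87 and 11.86. Fcgr2b measured 11.07, 11.84, 11.32 and 11.38 against 12.35, 12.03, 12.15 and 12.37, and the sides of both genes were apart. Clec4n, the fungal receptor dectin-2, rose by 1.26 ± 0.20 from 9.85, 10.82, 10.23 and 10.37 to 11.61, 11.32, 11.69 and 11.70. Cd300lf, an inhibitory receptor, was not detected on any 2.1 array and was at least 1.48-fold lower (adjusted p = 0.00108). Of 4 tested Ms4a genes (50% called, against 14% over all genes), Ms4a6b and Ms4a6d fell by 0.94 ± 0.13 and 0.36 ± 0.08.

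Several genes of the list of LXR and cholesterol efflux genes were higher on the 2.1 arrays, and the gene of LXR alpha itself was lower. This gene, Nr1h3, measured 10.90, 10.89, 10.94 and 10.87 on the 1.1 arrays and 9.94, 10.13, 10.18 and 10.19 on the 2.1 arrays and fell by 0.79 ± 0.08 (adjusted p = 0.00341). It was the 1 lower of 12 tested genes of the LXR list, 5 were higher and 6 were not called (50% called, against 14% over all genes). Whether the members that rose are under LXR in these cells was not tested. The list median was 0.46. Abca7, a lipid transporter, measured 8.94, 9.28, 9.45 and 9.19 against 9.91, 9.88, 10.04 and 10.13 and rose by 0.77 ± 0.10. Lpcat3, which remodels phospholipids, rose by 0.63 ± 0.09, Pltp, the phospholipid transfer protein, by 0.60 ± 0.13 and Apoc2, an activator of lipoprotein lipase, by 0.63 ± 0.15. Mylip, which degrades the LDL receptor, was not detected on any 1.1 array and was at least 1.34-fold higher (adjusted p = 0.0159). Without the wild-type untreated pair 2 genes of the list were called higher, without either deficient pair 3, and without the wild-type agLDL pair 5.

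Sterol synthesis genes were called in 2 of 18 tests (11.1%), near the share over all genes. Mvd, a mevalonate pathway enzyme, rose by 0.70 ± 0.10 and Stard4, a sterol carrier, by 0.46 ± 0.10. Lipid droplet genes were called in 0 of 14 tests by limma, at a median of -0.03. Plin2, the droplet coat protein that marks foam cells, measured 10.78, 11.58, 10.69 and 10.97 on the 1.1 arrays and 10.81, 10.75, 10.45 and 10.78 on the 2.1 arrays, and its difference of -0.31 ± 0.14 did not pass the test (adjusted p = 0.197). In number 1.1 both agLDL arrays were above both untreated arrays for Plin2, and in number 2.1 the values of the treatments overlapped. Mgll, monoacylglycerol lipase, had the smallest p of the droplet list, with -0.67 ± 0.20 (adjusted p = 0.0725), while its other probe, ILMN_2857957, differed by -1.11 (adjusted p = 0.00732 among all probes tested singly). Of 10 scavenger and lipoprotein receptors 2 were higher, Stab1 and Scarb1, the HDL receptor, which rose by 0.84 ± 0.09. Axl, a receptor for apoptotic cells, fell by 0.47 ± 0.09, so 30% of this list were called, against 14% over all genes.

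Heparan sulfate genes, to which the deleted gene belongs, were lower in 2 of 14 tests and higher in 0 (14.3%), near the share over all genes. B3galt6, which builds the linker between core protein and chain, measured 7.45, 7.52, 7.45 and 7.45 against 6.85, 6.95, 7.09 and 6.95 and fell by 0.51 ± 0.08 (adjusted p = 0.0124). Ext1, a chain polymerase, fell by 0.31 ± 0.08 with values that overlapped between the sides. Among 7 proteoglycan core proteins only Bgn was called (14.3%, against 14% over all genes), and Agrn, agrin, differed by 0.33 ± 0.09 (adjusted p = 0.0524). The syndecan genes Sdc3 and Sdc4 differed by -0.17 ± 0.08 and -0.14 ± 0.08 and were not called.

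Antioxidant genes under NRF2, the transcription factor of the oxidative stress response, were higher in 6 of 20 tests and lower in 0 (30.0%, against 6.67% called higher over all genes). Gsta3, a glutathione transferase, measured 5.63, 6.26, 6.48 and 6.14 against 7.26, 7.29, 7.45 and 7.69 and rose by 1.30 ± 0.14 (adjusted p = 0.00341). Gstm1, another transferase, rose by 0.78 ± 0.09, though its second probe differed by 0.26, and Cat, catalase, by 0.69 ± 0.13. Nqo1, a quinone reductase, rose by 0.55 ± 0.12 and was detected on 1 of the 1.1 arrays and all 2.1 arrays. Gclm, a subunit of the enzyme that starts glutathione synthesis, rose by 0.42 ± 0.09 and Mgst1, a membrane transferase, by 0.46 ± 0.11. With 1 pair left out between 2 and 5 genes of this list were called higher, the fewest without the deficient untreated pair.

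Genes of amino acid and endoplasmic reticulum stress were lower in 4 of 25 tests and higher in 1 (20% called, against 14% over all genes). Of the called genes 4 were detected on all 8 arrays, and 1 of the lower genes was detected on none of them. Mthfd2, a mitochondrial folate enzyme, fell by 0.91 ± 0.12, Ddit3, the transcription factor CHOP, by 0.60 ± 0.09 and Aars, alanyl-tRNA synthetase, by 0.51 ± 0.10. Herpud1, a protein of endoplasmic reticulum degradation, rose by 0.89 ± 0.12, from 10.74, 11.13, 10.81 and 11.07 to 12.01, 11.77, 11.73 and 11.78. Asns, asparagine synthetase, differed by -0.87 ± 0.26 without passing (adjusted p = 0.0735). Of 16 immediate early and MAPK feedback genes 3 were lower and 2 higher (31.25% called, against 14% over all genes). Dusp1, a MAPK phosphatase, fell by 0.90 ± 0.11, Jun by 0.81 ± 0.09 and Atf3 by 0.59 ± 0.07. Ier3, an early response gene of cell survival, rose by 1.08 ± 0.13 (adjusted p = 0.00478).

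Growth genes showed 2 higher and 2 lower of 36 tested (11.1%, against 14% over all genes). Ccnd1, the G1 cyclin D1, measured 12.53, 12.08, 12.36 and 12.15 against 11.21, 11.57, 11.18 and 11.12 and fell by 1.01 ± 0.14 (adjusted p = 0.00777). Ccnd2, cyclin D2, was not detected on any 2.1 array and was at least 2.26-fold lower (adjusted p = 0.0025). Cenpa, the centromeric histone, rose by 0.88 ± 0.10 and Cdkn2c, an inhibitor of cyclin D kinases, by 0.71 ± 0.17. Mcm6, a subunit of the replication helicase, differed by -0.51 ± 0.15 and was not called (adjusted p = 0.07). Pou3f1, a POU transcription factor, was among the largest falls, from 8.92, 8.61, 8.62 and 8.52 to 5.71, 6.10, 5.33 and 5.68 (-2.96 ± 0.14), and was detected on 1 of the 2.1 arrays. The unnamed probe ILMN_1255416 fell by 3.11 ± 0.10 from 13.34, 13.14, 13.02 and 12.98 to 10.03, 9.92, 9.94 and 10.15.

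Of 21 genes of glycolysis and hypoxia 3 were higher and 0 lower (14.3%), near the share over all genes, and of these Aldoc, an aldolase, rose by 1.39 ± 0.13 and Ndrg1, a hypoxia-induced gene, by 1.17 ± 0.16. Among 21 genes of fatty acid oxidation 2 were higher and 2 lower (19.0%, against 14% over all genes). Angptl4, an inhibitor of lipoprotein lipase, rose by 0.77 ± 0.20 and Pparg, the lipid-sensing nuclear receptor, fell by 0.32 ± 0.08, both close to the threshold with adjusted p-values of 0.0496 and 0.0492. Lysosomal genes were called in 2 of 33 tests (6.06%, against 14% over all genes): Ctsf, cathepsin F, rose by 1.01 ± 0.09 and Ctsd, cathepsin D, fell by 0.50 ± 0.09. By limma 0 of 26 respiratory chain genes and 0 of 24 ribosomal protein genes were called. Their differences ran from -0.22 to 0.24 and from -0.20 to 0.13, with medians of 0.01 and -0.02.

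Markers of most other blood cells were largely undetected. Of the markers on the array, 9 of 9 for mast cells and basophils, 12 of 13 for T and NK cells and 9 of 10 for dendritic cells were not detected on any of the 8 arrays. Of 7 B cell markers 4 were not detected on any array, and 0 of the 3 tested were called. Neutrophil and granulocyte precursor markers were detected, 13 of 15, and were brighter on the 2.1 arrays. Their summed level lay between 16473 and 22407 on the 1.1 arrays and between 24217 and 29107 on the 2.1 arrays, without overlap. S100a8, the brightest member (means of 13.41 on the 1.1 and 13.72 on the 2.1 arrays), weighed most in this sum and was not called. The 13 tested members differed by 0.17 to 0.70, with a median of 0.45, and 2 passed the test (15.4%, against 6.67% called higher over all genes). Ltf, lactoferrin of secondary granules, rose by 0.49 ± 0.10 and Retnlg, resistin-like gamma, by 0.70 ± 0.15. Neither was called without the wild-type untreated, the deficient untreated or the deficient agLDL pair. With the arrays of each mouse averaged, 7 of the 13 were called higher, against 486 of all 7647 genes. The neutrophil receptor gene Cxcr2 and the granule collagenase gene Mmp8 were not detected. The part of such cells in the rises given above, among them those of Mmp9 and Cd14, was not tested.

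The size of the difference varied between pairs. Among the genes called higher the median was 0.68 in the wild-type untreated pair, 0.45 in the wild-type agLDL pair, 0.53 in the deficient untreated pair and 0.54 in the deficient agLDL pair. Among the genes called lower the medians were -0.66, -0.52, -0.56 and -0.53 in the same order. Across the 7647 genes the differences of 2 pairs correlated between 0.499 and 0.640 (Pearson) and between 0.388 and 0.526 (Spearman), as a description over genes, which are not independent replicates. Without the wild-type untreated pair 423 genes were called, without the wild-type agLDL pair 783, without the deficient untreated pair 402 and without the deficient agLDL pair 502. All 1069 called genes kept their sign in each of these fits, which was fixed in advance for the 1067 with the same sign in all 4 pairs. Of the 121 called genes named here, 72 were called in all 4 of them, and 39, 16, 42 and 37 were no longer called without the respective pair, with adjusted p-values of at most 0.154.

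Whether the number difference depended on the genotype label, and so on the slide and the pair of mice, was tested as an interaction. By limma 0 of 7647 genes passed, with 344 at an unadjusted p under 0.05 and a smallest adjusted p of 0.952. The genes with the smallest p were Acvrl1, Tmem144, Hace1, Hdac8 and Trps1. For Hace1, a ubiquitin ligase, the 2 wild-type pairs differed by 1.14 and 0.63 and the 2 deficient pairs by -0.48 and -0.39. Hdac8, a histone deacetylase, went the other way, with -0.63 and -0.54 against 0.87 and 0.44. None of these genes was called over the 4 pairs. Within slide 1 alone 275 genes were called and within slide 2 alone 77, from 2 pairs each.

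**Figure D5:**
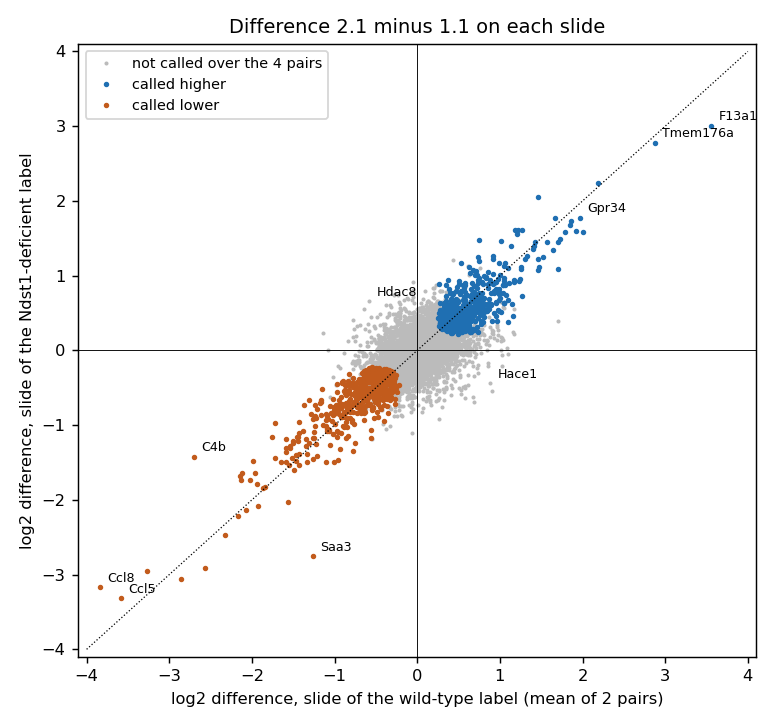
Mean log2 difference (2.1 minus 1.1) of the 2 pairs on the slide of the wild-type label (horizontal axis) against that of the 2 pairs on the slide of the Ndst1-deficient label (vertical axis), 1 point per gene. The dotted line marks equal differences. The 510 genes called higher (blue) lie at the upper right and the 559 called lower (orange) at the lower left, and C4b and Saa3 lie off the line.

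The interaction with the agLDL label gave 0 called genes by limma as well, with 423 at an unadjusted p under 0.05 and a smallest adjusted p of 0.629. The genes with the smallest p were Zfp638, Nt5dc3, Tmem176b, Kctd12b and the unnamed probe ILMN_2692989. Tmem176b, described above, was higher by 2.86 and 2.88 in the untreated pairs and by 1.52 and 1.61 in the agLDL pairs. For Kctd12b the untreated pairs differed by 1.13 and 1.18 and the agLDL pairs by -0.04 and 0.11. Zfp638 differed by 0.53 and 0.61 without agLDL and by -0.88 and -1.01 with it. With 2 residual degrees of freedom and 2 mice a side, these differences between treatments did not pass the correction.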

How the data were processed

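Total RNA was labelled with biotin and hybridised to single-colour Illumina arrays, per the labels. Per the file headers, the deposited table gave a mean bead intensity and a detection p-value for 25697 probes on each of 16 arrays, before normalization, in which the authors left the background in place. The submitters' processing notes name GenomeStudio, with a version not given in the sources used here. A series matrix from the authors, with linear background-subtracted intensities, was used only as an alternative.

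Signals were corrected, given an offset of 16, quantile-normalized over all 16 arrays and put on the log2 scale with neqc in limma 3.58.1 (R 4.3.3), from the deposited intensities. Probes with a detection p under 0.01 on at least 4 of 16 arrays were kept (10224), and each gene was read from its probe detected on most arrays, then the brightest. This left 7082 genes with a name and 565 probes without one. GEO's platform annotation named 23978 probes and left 1719 unnamed. Of 239 called genes with more than 1 kept probe, 106 had every probe called in the same direction and 1 had a probe called in the opposite one.

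The 8 arrays were fitted with 4 pair blocks and the number (lmFit, eBayes, 3 residual degrees of freedom), with Benjamini-Hochberg adjustment at 0.05 over 7647 genes. The fit was tested on simulated data. The pairs come from the labels and match genotype and treatment, not animals. The numbers of mice and arrays limit the precision. The p-values set each difference against the spread among the 4 pair differences. The pairs share mice, so this spread is not that between animals alone. Where no array of a side detected a probe, the fold is a bound. It sets the mean of the bright side against a floor, on each array the lowest signal among detected probes or the dim probe's own signal if that was higher.

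The arrays compared and the 42 gene lists were chosen with earlier results of these data known. Named were the 14 largest called differences each way (same sign in all 4 pairs, detected on all 4 arrays of a side), up to 6 members of each list by p (all members of lists of 5 or fewer), every Lyz2 probe, Plin2 and 5 genes per interaction. Genes not detected on any array and called by name only, such as Col1a2, Cxcr2 and Mmp8, were added after their values were seen. Alternatives varied the pairing, samples, normalization, background, filter, probe rule and variance model.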

Additional observations from a re-analysis of the deposited data

Results flagged for a closer look

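In 14 of 304 sets of 4 arrays, taken from the 152 genes or probes named in the report, 1 array lay apart from the other 3 by Dixon's test, and chance alone gives about 1 in 20. All values are normalized log2 signals.

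Number 1.1 held 8 of these. In Sparc and Tnfaip2 the wild-type untreated array was low, at 7.53 against 7.88 to 7.91 and at 10.66 against 11.15 to 11.21. In Ccl4 the same array was high, at 13.97 against 13.74 to 13.77. In Bgn and Fcgr1 the deficient untreated array was low, at 7.69 against 8.03 to 8.05 and at 12.44 against 12.57 to 12.58. In Col5a1 the deficient agLDL array was low, at 6.79 against 7.12 to 7.15. In Cd74 and B3galt6 the wild-type agLDL array was high, at 11.51 against 11.15 to 11.20 and at 7.52 against 7.45.

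Number 2.1 held the other 6. In Dapk1 and Oas3 the wild-type untreated array was high, at 8.40 against 8.20 to 8.22 and at 9.58 against 9.35 to 9.39. In H2-Ab1 and Clec10a the wild-type agLDL array was low, at 9.91 against 10.48 to 10.59 and at 6.47 against 6.97 to 7.05. Plin2 was low on the deficient untreated array, at 10.45 against 10.75 to 10.81. The saturated Lyz2 probe was at 15.30 on the deficient agLDL array and at 15.36 on the other 3.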

How the results depend on the processing

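All 1069 genes called between the numbers kept their sign under every alternative that measured them (1029 of them with detection required on 4 of the 8 arrays). The difference itself did not depend on the block, the averaging of a mouse's arrays, the variance model or the 1.5-fold rule. With pairs left out, or within 1 slide, the sign was fixed in advance for the 1067 genes with the same sign in all 4 pairs. In these fits the kept sign is therefore no test. The count of calls was 1338 with no replicate block, that is without the pairs, and lay between 748 (no detection filter, 18312 genes tested) and 1572 (no background correction) under the other normalizations, filters, probe rules and models, apart from 1652 with a trended and robust variance model and 470 with a difference of at least 1.5-fold asked in addition. Within slide 1 it was 275 and within slide 2 it was 77, each from 2 pairs. Leaving out 1 pair gave between 402 and 783 calls. The share of higher genes among the calls lay between 45.3% and 49.7% under the other scalings, against 47.7%. Both interactions gave 0 calls in each fit run for them: with no replicate block, with no detection filter, with neqc on the 8 arrays alone and with each pair left out. For the 152 named genes, 0 of the values under an alternative were reversed where a call was made, 365 were no longer past the threshold and 63 newly were. The 49 named genes that lost their call with some pair left out include the 4 lower interferon gamma GTPases but Igtp. They also include all genes of the LXR list given as higher but Abca7 and Lpcat3. H2-Ab1, Cd74, H2-Eb1, Cxcl10, Cxcl2 and Cxcr4 are among them too. Each fit with a pair left out had 6 arrays and 1 residual degree of freedom less. Signal over background limits the genes near the detection limit. Of the higher genes 27 were not detected on any 1.1 array, and of the lower genes 46 were not detected on any 2.1 array. Their sizes are at best bounds, and some of them were not detected on any of the 8 arrays.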
